A study of Mus musculus with 4 samples.

Results

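The 8 genes described here encode structural proteins of meiotic chromosomes: Sycp1, Sycp2, Sycp3, Syce1, Syce2, Tex12, Hormad1 and Hormad2. They were chosen by name, 8 of the 22367 protein-coding genes of the GENCODE annotation of mouse build mm9, and read for histone H3 trimethylated at lysine 36 (H3K36me3), in B6 and KI. B6 is C57BL/6J. KI is B6.Cg-Prdm9<tm1.1Kpgn>/Kpgn, the same background with the last exon of Prdm9, which encodes the DNA-binding zinc fingers, replaced by that of CAST/EiJ. Both carry an intact Prdm9 methyltransferase. The ChIP samples are labelled spermatocytes at 14 days post-partum (dpp), and their inputs 15 dpp. The antibody cell of the labels reads H3K36me6, against H3K36me3 in the titles. The authors merged 2 biological replicates per strain before calling regions, so each strain has 1 list of broad regions (called unrefined) and 1 of the narrower peaks inside them (called refined), and both give positions only. No value below has a replicate error, no test between strains was possible, and the read depth behind a region is unknown.

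During meiotic prophase, homologous chromosomes are zipped together by the synaptonemal complex. SYCP2 and SYCP3 build the chromosome axis, or lateral element, SYCP1 forms the transverse filaments that bridge the axes, and SYCE1, SYCE2 and TEX12 make up the central element between them. HORMAD1 and HORMAD2 sit on axes that have not yet synapsed. H3K36me3 is laid down over the bodies of transcribed genes by SETD2, which travels with elongating RNA polymerase II, and in spermatocytes PRDM9 also places it at recombination hotspots.

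All 8 genes lay almost wholly inside broad H3K36me3 regions in both strains, and the 5' edge of that enrichment fell at the same position in B6 and KI in each of them. Refined peaks were few and mostly differed in position between strains. The 250 bases before the 5' end lay outside the broad regions in 7 of the 8 genes. Few covered genes were inside a region at 250 bp before the 5' end, 11.7% in B6 and 12.1% in KI. Of the 8, the 4 that hold the palindrome CACGTG (an E-box) are printed here in the direction of transcription, the last base being the one before the annotated gene, with CACGTG in capitals. They are Sycp1 at chr3:102740024-102740273 (minus strand), Sycp3 at chr10:87922064-87922313 (plus strand), Tex12 at chr9:50369374-50369623 (minus strand) and Hormad1 at chr3:95363349-95363598 (plus strand), all on mm9.
Sycp1: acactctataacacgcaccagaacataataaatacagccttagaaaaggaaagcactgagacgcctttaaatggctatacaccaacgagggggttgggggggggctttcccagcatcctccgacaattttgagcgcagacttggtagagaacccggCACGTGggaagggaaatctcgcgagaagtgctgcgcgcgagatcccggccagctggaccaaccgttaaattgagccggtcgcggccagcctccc
Sycp3: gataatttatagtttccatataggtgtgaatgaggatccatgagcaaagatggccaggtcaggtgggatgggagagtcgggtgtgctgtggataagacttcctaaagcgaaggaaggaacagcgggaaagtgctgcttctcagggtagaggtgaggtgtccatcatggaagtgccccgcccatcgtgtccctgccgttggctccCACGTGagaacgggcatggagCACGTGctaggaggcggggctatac
Tex12: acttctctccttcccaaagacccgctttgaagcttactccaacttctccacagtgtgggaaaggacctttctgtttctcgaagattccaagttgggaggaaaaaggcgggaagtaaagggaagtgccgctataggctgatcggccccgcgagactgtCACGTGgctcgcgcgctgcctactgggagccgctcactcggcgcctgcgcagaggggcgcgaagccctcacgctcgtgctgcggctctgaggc
Hormad1: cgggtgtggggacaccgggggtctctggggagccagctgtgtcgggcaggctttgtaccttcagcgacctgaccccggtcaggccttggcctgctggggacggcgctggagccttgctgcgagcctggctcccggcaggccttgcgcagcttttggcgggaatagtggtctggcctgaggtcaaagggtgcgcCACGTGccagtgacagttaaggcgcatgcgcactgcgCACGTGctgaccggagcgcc

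In windows from 250 bases before to 50 bases after the 5' end, CACGTG stood in 4 of the 8 genes, against 7.79% of all protein-coding genes and 11.2% of those covered by H3K36me3 at 50% or more in both strains. The first base of the motif lay at -94 in Sycp1, at -46 and -25 in Sycp3, at -93 in Tex12 and at -57 and -20 in Hormad1, counted from the 5' end. TCCCGC, a core of E2F sites, was found on either strand in 5 of the 8 (Sycp1, Sycp3, Syce2, Tex12 and Hormad1), against 24.4% of all and 35.7% of covered genes. CCAAT was found in 1 (Sycp3, at 29), against 37.9% of all and 40.1% of covered genes. TATAAA was found in 2, at -226 in Sycp2 and -245 in Sycp3, against 13.4% of all and 6.91% of covered genes. The 4 motifs were searched on both strands. In the 8 windows no match overlapped another. The motifs were chosen after the Sycp3 sequence had been read. The windows held a median of 16.5 CpG, between the 11 of all genes and the 21 of covered genes, from 10 in Sycp2 to 26 in Tex12.

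Coverage was measured as the share of a gene's span inside merged broad regions. In B6, 8 of 8 genes were covered at 90% or more, against a background of 26.5% of all protein-coding genes and 33.2% of the 15301 genes in the same length range (4.12 kb to 118 kb). In KI, again 8 of 8 were covered at 90% or more, against 23.6% and 29.7%. The median was 97.8% in both strains, while the median over all genes was 21.5% in B6 and 18.4% in KI. Over the genes in the same length range it was 58.6% in B6 and 51.5% in KI. At the limit of 50%, which all 8 also passed, the backgrounds were 43.0% and 41.2%. A single merged region held 7 of the 8 genes in B6 (72.9% of covered genes) and 6 in KI (67.6%).

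**Figure D1:**
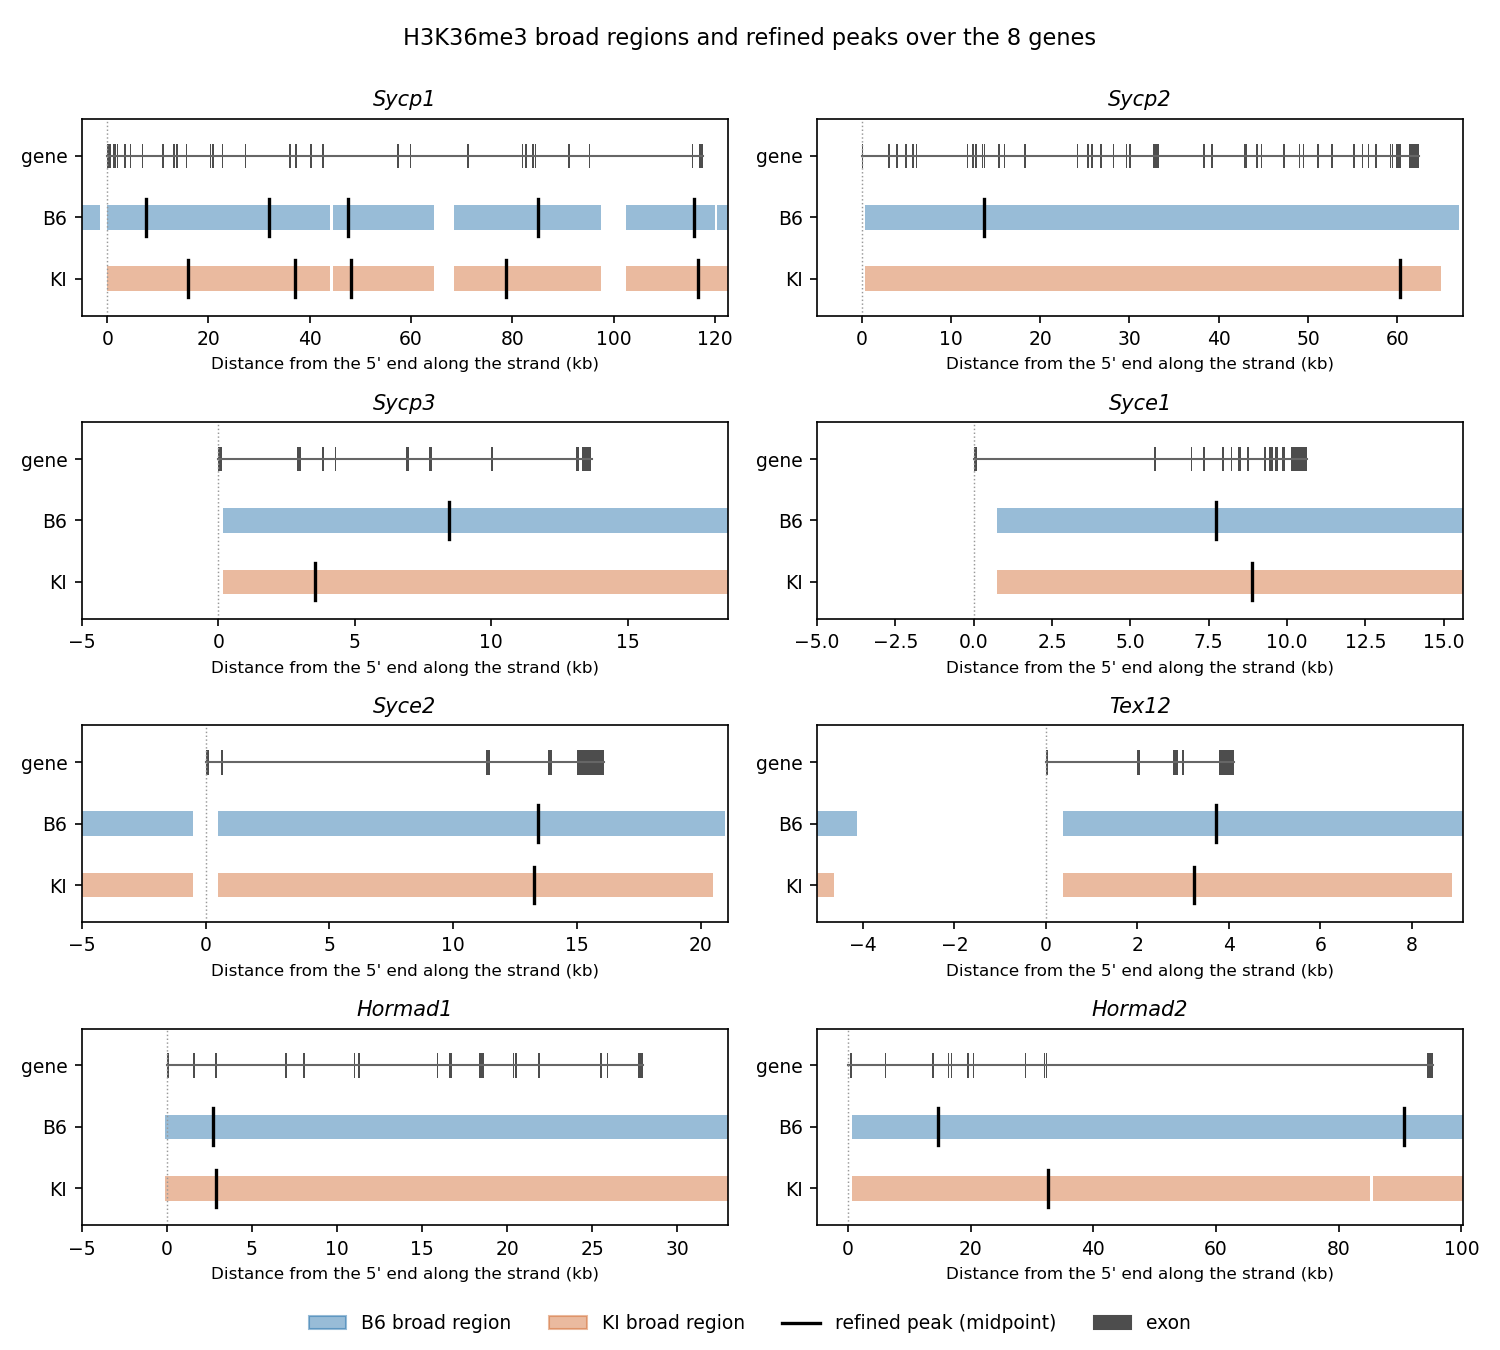
Broad H3K36me3 regions (blue, B6; orange, KI), refined peaks (black ticks at the midpoint) and exons of the longest protein-coding transcript (grey) over each gene and 5 kb on either side, by distance from the 5' end in kb along the strand. In all 8 genes both strains start at the same place, and Sycp1 is broken at the same 3 stretches in both.

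Among the axis genes, Sycp2 (chr2:178079998-178142390, minus strand, 44 exons, ENSMUSG00000060445.5) was covered at 99.4% in B6 and in KI by a single region. Sycp3 (chr10:87922314-87935981, plus strand, 9 exons, ENSMUSG00000020059.3) was covered at 98.6% in both. It lies entirely inside Chpt1, a choline phosphotransferase gene on the opposite strand, which was covered at 84.7% in B6 and 82.8% in KI. Histone marks carry no strand, so the share that belongs to either gene cannot be told apart.

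Hormad1 (chr3:95363599-95391593, plus strand, 16 exons, ENSMUSG00000028109.8) was the member covered over its full length, at 100% in both strains. Hormad2 (chr11:4245817-4341108, minus strand, 11 exons, ENSMUSG00000020419.4) was covered at 99.4% in B6 and 98.8% in KI. It was the single member whose share differed between strains, because KI lacked 500 bp of one intron, 85.1 kb from the 5' end. A share within 1 percentage point between strains, which every member had, was found in 45.8% of the 8919 genes covered in both. How many of these had identical shares was not computed.

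Sycp1, the transverse filament gene (chr3:102622422-102740023, minus strand, 33 exons, ENSMUSG00000027855.8), was covered at 91.9% in both strains, in 4 regions. The breaks were 3 intronic stretches of 5.0 kb, 4.0 kb and 0.5 kb that lay 97.5 kb, 64.5 kb and 44.0 kb from the 5' end and had identical edges in both lists. The sequence of these stretches is largely repeated: 99.6%, 99.0% and 100% of their 32-mers occur more than once in mm9, against 29.2% in the covered bases of the gene. Conversely, of 43 windows of 500 bp along Sycp1 with at least 90% repeated 32-mers, 21 were fully inside broad regions of both strains. The authors kept reads of unique position, and the part of repeats in the breaks was not tested. The 500 bp that KI lacked in Hormad2 held no repeated 32-mer.

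**Figure D2:**
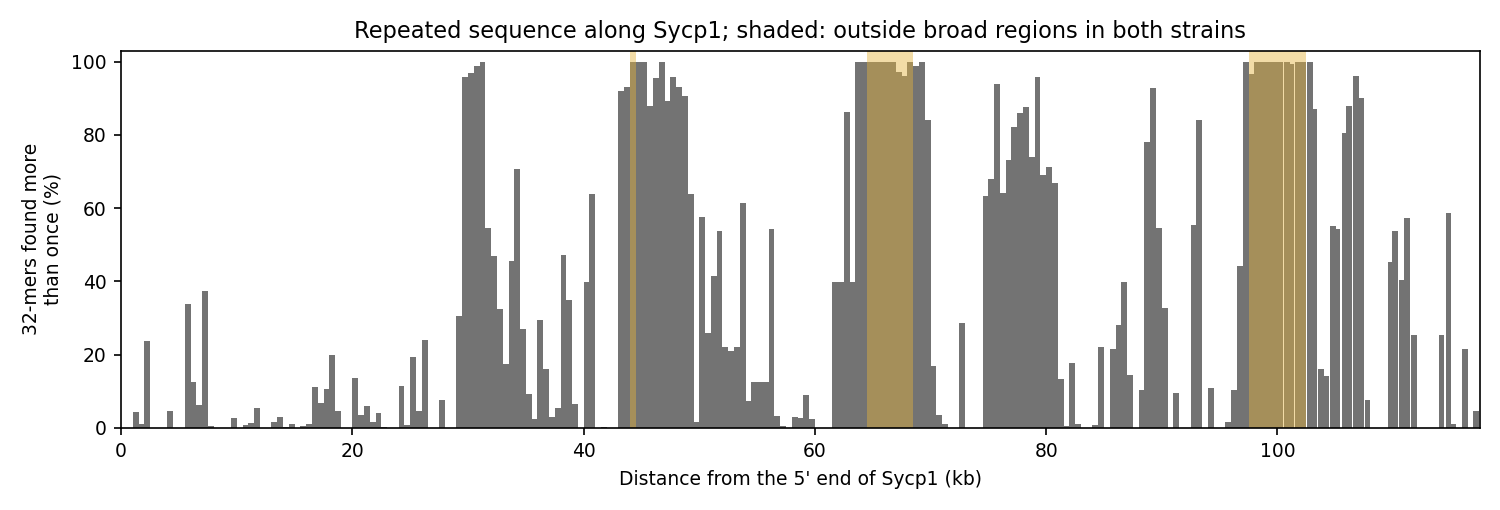
Share of 32-mers found more than once in mm9 (%, grey bars, windows of 500 bp) by distance from the 5' end of Sycp1 in kb. The 3 shaded stretches, 5.0, 4.0 and 0.5 kb long and outside broad regions in both strains, stand in blocks near 100%, and other such blocks are covered.

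The central element genes spanned 4.12 to 16.1 kb. Syce1 (chr7:147963128-147973753, minus strand, 13 exons, ENSMUSG00000025480.4) was covered at 92.9% in both strains. Syce2 (chr8:87396010-87412120, plus strand, 5 exons, ENSMUSG00000003824.6) was covered at 97.0% in both, and its last 11.4% overlaps the opposite-strand gene Gcdh, which encodes a mitochondrial dehydrogenase and was covered at 89.1% in B6 and 82.5% in KI. Tex12 (chr9:50365253-50369373, minus strand, 5 exons, ENSMUSG00000032065.5), only 4.12 kb long, was covered at 90.9% in both. Its uncovered bases, as those of Syce1 and Syce2, all lay at the 5' end.

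The start of H3K36me3 was taken as the 5' edge of the merged region that covers most of the gene. Edges lie on a grid of 500 bp, so differences below that step cannot be resolved. The edge was 23 bp inside Sycp1, 187 bp inside Sycp3, 373 bp inside Tex12 and 390 bp inside Sycp2. It was 491 bp inside Syce2, 608 bp inside Hormad2 and 753 bp inside Syce1, whereas in Hormad1 it was at -98 bp, upstream of the gene. Each of these values was the same in B6 and KI, 8 of 8, while 43.0% of genes covered at 50% or more in both strains shared their start. The edge fell in exon 1 in Sycp1 and Hormad2 and in intron 1 in 5 genes. A start upstream, as in Hormad1, was found in 8.57% of covered genes in B6 and 8.54% in KI.

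The members' starts were closer to the 5' end than those of genes covered at 50% or more. All 8 were covered at 90% or more, which by itself limits how far inside a gene coverage can begin. Genes covered at 90% or more were not taken as a separate comparison, so the starts are not a trait apart from the coverage. Their median was 382 bp in both strains, against 1067 bp over the 9628 covered genes in B6 and 1173 bp over the 9224 in KI. In 7 of 8 the region started from 0 to 1000 bp inside the gene, against 39.1% of covered genes in B6 and 36.3% in KI. At 250 bp before the 5' end none of the 8 was covered, at 500 bp inside 6 were, and at 1000 bp inside all 8 were. The bases left uncovered at the 5' end were richer in G and C than the covered part. In the 6 genes with at least 100 such bases, their GC content ran from 48.0% in Hormad2 to 70.7% in Syce2, and that of the covered part in the same genes from 35.1% in Sycp2 to 44.3% in Syce2.

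**Figure D3:**
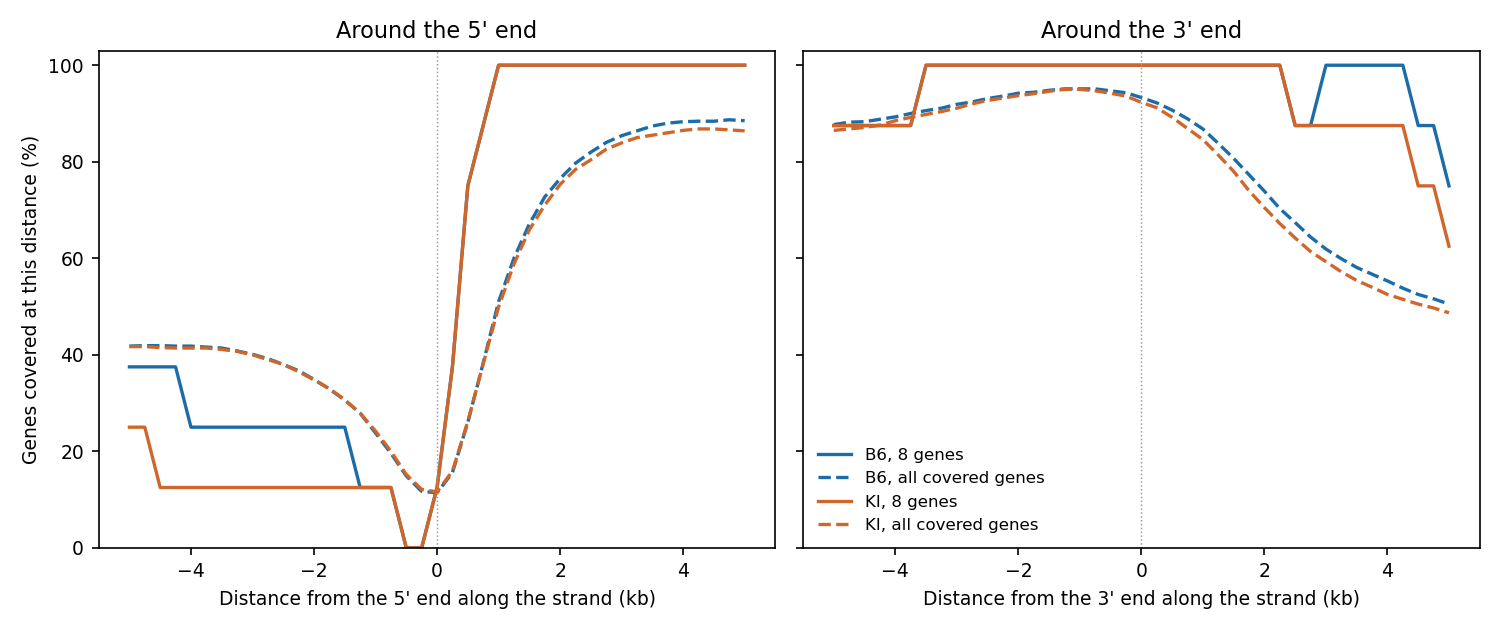
Share of genes (%) inside a broad region at each distance in kb from the 5' end (left) and the 3' end (right), for the 8 genes (solid) and all genes covered at 50% or more (dashed) in B6 and KI. The 8 genes go from 0 of 8 at 250 bp before the 5' end to 8 of 8 at 1000 bp inside, and all 8 are covered at the 3' end.

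Upstream of the start, the 2 kb before the gene were free of broad regions in both strains in 5 of the 8 genes. The share of all genes with such a clear stretch was not computed. At 2000 bp before the 5' end, 2 of the 8 were covered in B6 and 1 in KI, against 34.9% and 34.8% of covered genes. In Syce2, 74.5% of these 2 kb were covered in both strains by a region that ended 1.0 kb before that of Syce2. In Sycp1, 26.1% were covered in B6 and none in KI, where the next region upstream was 60.0 kb away. In Hormad1 the 4.9% covered belonged to the gene's own region. The longest clear stretch before a start in B6 was that of Hormad1, 47.0 kb (42.0 kb in KI).

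Unlike the starts, the ends differed between strains. In Sycp2 the region ran 4.50 kb past the 3' end in B6 and 2.50 kb in KI. In Sycp3 it ran 30.0 kb past in B6 and 23.5 kb in KI, inside Chpt1, and with gaps of up to 1000 bp closed it ran 30.0 kb past in both strains. In Syce2 it ran 4.88 kb past in B6 and 4.38 kb in KI, inside Gcdh. As called, these 3 ends lay farther in B6.

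The next 3 regions reached a neighbouring gene. The Tex12 region ran 23.8 kb past the gene in B6 and 4.75 kb in KI, into Bco2 (a carotenoid oxygenase gene on the same strand, 1.97 kb away), which was covered at 98.6% in B6 and 89.5% in KI. With gaps of up to 1000 bp closed, the KI region of Tex12 ran 22.8 kb past the gene. The Hormad1 region ran 34.4 kb past the gene in B6 and 33.9 kb in KI and took in the whole of Golph3l, a same-strand gene 1.29 kb away. The Syce1 region was the exception in direction, with 8.63 kb past the gene in B6 and 10.6 kb in KI, into the converging gene Cyp2e1 (a cytochrome P450 gene, covered at 56.7% in B6 and 74.5% in KI).

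The 2 longest members had no protein-coding neighbour in reach. In Hormad2 the last region ended 22.8 kb past the 3' end in B6 and 21.8 kb in KI, with a U6 snRNA as the single other annotated gene in it. In Sycp1 the last region ended 2.42 kb past the gene in B6 and 20.9 kb in KI. By the last region met, the end was thus farther in B6 in 6 genes and farther in KI in 2, and all 8 ended beyond the gene in both strains. The share over all genes was not computed for these counts. By the region that covers most of the gene, the median end over covered genes was also farther in B6, 3095 bp against 2731 bp in KI. By this region, 7 of the 8 ended beyond the gene in B6 (background 82.9% of covered genes) and 6 in KI (80.7%). That end was at the same position in both strains in 1 member, Sycp1 (-73.6 kb relative to the 3' end, at the first break), against 32.6% of genes covered in both.

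**Figure D4:**
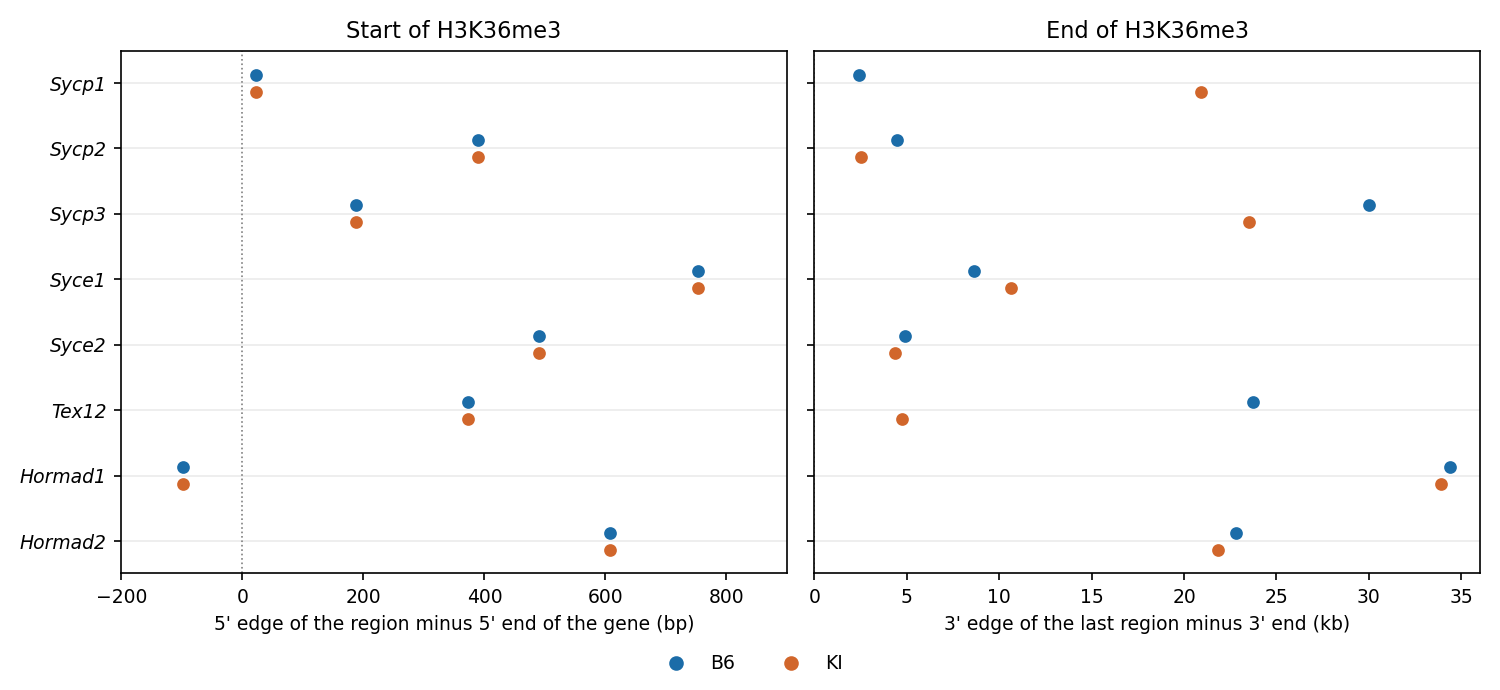
Left, 5' edge of the region covering most of each gene relative to its 5' end (bp). Right, 3' edge of the last region relative to the 3' end (kb), in B6 (blue) and KI (orange). The starts coincide in 8 of 8 genes, and the ends are apart by 0.5 kb in Syce2 and Hormad1 and by more in the others.

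Within the broad regions, the authors called refined peaks. The 8 genes, 348 kb in all, met 13 refined peaks in B6 and 12 in KI. This is 3.74 and 3.45 peaks per 100 kb, against 7.66 and 9.91 in covered genes and 4.51 and 5.40 in all protein-coding genes, which share many peaks with overlapping genes. Every member had at least 1 peak in each strain, as did 87.4% of covered genes in B6 and 88.3% in KI. Sycp1 had 5 in each strain, Hormad2 had 2 in B6 and 1 in KI, and the other 6 had 1 in each. None had its midpoint within 2 kb of the 5' end. In B6, 4 peaks met an exon and 9 lay in introns, and in KI 5 and 7. These positions were not counted for the peaks of other genes. The median width of the members' peaks was 290 bp in B6 and 393 bp in KI, beside 313 bp and 319 bp over the whole lists.

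Of the peaks, 4 in each strain overlapped a peak of the other, 1 each in Syce1, Syce2, Tex12 and Hormad1. In all, 6 members had 1 peak in each strain, and these overlapped in 4 of them, against 23.6% of the 3575 genes with 1 peak in each strain and 20.7% of those in the members' length range. The bases common to both peaks are printed here because they are the only bases of these genes inside refined peaks of both strains. They are on the strand of the gene with exon bases in capitals, from Syce1 (chr7:147965176-147965200, minus strand), Syce2 (chr8:87409309-87409576, plus strand), Tex12 (chr9:50365955-50366006, minus strand) and Hormad1 (chr3:95366359-95366433, plus strand, mm9).
Syce1: tgatataggtatagtaatgcccggg
Syce2: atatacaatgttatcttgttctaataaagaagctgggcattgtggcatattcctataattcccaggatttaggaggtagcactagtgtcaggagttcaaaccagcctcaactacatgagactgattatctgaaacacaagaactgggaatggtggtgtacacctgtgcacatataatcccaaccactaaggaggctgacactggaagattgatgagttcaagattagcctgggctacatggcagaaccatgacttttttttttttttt
Tex12: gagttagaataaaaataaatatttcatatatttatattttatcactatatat
Hormad1: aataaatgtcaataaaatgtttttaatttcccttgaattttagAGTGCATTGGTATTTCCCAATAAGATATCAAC

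In Syce2 the intronic B6 peak of 268 bp lay wholly inside the KI peak of 636 bp, the widest KI peak in the members, 13.3 kb from the 5' end. In Hormad1 the peaks, 242 bp in B6 and 310 bp in KI, shared 75 bp that run into exon 3, of which 32 bases are exonic. In Tex12 the shared 52 bp are intronic and hold 11.5% G and C. The B6 peak (683 bp) reached into the last exon and the KI peak (357 bp) did not. In Syce1 the widest B6 peak of all members, 1695 bp over exons 3 to 7, touched the KI peak of 634 bp at exon 8 by 25 bp. The overlaps in Syce1, Tex12 and Hormad1 are all shorter than any refined peak of these genes, the narrowest being 138 bp.

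The other 9 B6 peaks and 8 KI peaks had no overlapping partner. The nearest KI peak lay 0.207 to 31.1 kb from these B6 peaks, with a median of 5.93 kb. In Sycp2 the B6 peak (231 bp) met exon 11, 13.7 kb from the 5' end, and the KI peak (545 bp) met exons 42 and 43, 60.3 kb from it. In Sycp3 the B6 peak (289 bp) was intronic at 8.45 kb, while the KI peak (536 bp) met exon 3 at 3.53 kb. In Hormad2 the B6 peaks lay at 14.8 and 90.6 kb and the KI peak at 32.7 kb.

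In Sycp1 the B6 peaks stood 7.75, 32, 47.5, 85.1 and 116 kb from the 5' end. The KI peaks stood 16.0, 37.1, 48.2, 78.8 and 117 kb from it, that at 37.1 kb over exon 18 (426 bp). The pair near 48 kb was 0.207 kb apart, and these peaks had 88.2% (B6) and 93.4% (KI) repeated 32-mers, as did the KI peak at 78.8 kb with 88.6%. The other peaks of the 8 genes had at most 14.0%. All 13 B6 and 12 KI peaks lay on broad enrichment of the other strain. Broad regions held 96.5% of the bases of these genes in B6 and 96.3% in KI, so a peak could hardly fall elsewhere.

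Other genes linked to the axis and the complex, not all of them structural, were read from a list of 15. It holds the cohesin subunits Rec8, Rad21, Rad21l, Stag3, Smc1a, Smc1b and Smc3, the central element genes Syce3 and 4930447C04Rik (Six6os1), the remodelling ATPase gene Trip13, and Fkbp6, Tex11, Ccdc36 (Iho1), Rnf212 and Ccnb1ip1. In both strains 15 of 15 were covered at 50% or more, against 43.0% of all protein-coding genes in B6 and 41.2% in KI, and 14 at 80% or more, against 33.6% and 31.2%, with medians of 97.7% in B6 and 95.9% in KI. Stag3 was covered at 99.9% and Smc1b at 95.0% in both strains. Rec8, the meiotic kleisin, was covered at 91.5% in B6 and 84.7% in KI, Syce3 at 85.6% and 92.9%, and Trip13 at 99.2% and 97.2%. The region started at the same position in both strains in 8 of the 15, near the 43.0% of genes covered in both, and from 0 to 1000 bp inside the gene in 8 in B6 and 6 in KI, near the 39.1% and 36.3% of covered genes. The list met 27 refined peaks in B6 and 38 in KI, with 9 and 18 of them in the X-linked gene Tex11. Genome-wide, 58502 refined peaks were called in B6 and 72692 in KI.

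The label of the cells was checked against markers of the cell types the testis holds. All 6 matched spermatocyte markers were covered at 80% or more in both strains, against 33.6% of all protein-coding genes in B6 and 31.2% in KI. Of 5 matched Sertoli cell markers, 1 (Wt1) passed 50% in B6 and none in KI, against 43.0% and 41.2%. The list median was 42.0% in B6 (range 19.6% to 71.7%) and 8.24% in KI (range 0% to 18.7%, Sox9 at 0%). The B6 median is the value of Amh, 2.4 kb long. Its region ran from -6492 bp relative to the 5' end to -1.39 kb relative to the 3' end. Among Leydig markers only Star, at 100% in both strains, was above 2%. The region over Star started at -22445 bp relative to the 5' end in B6 and -1445 bp in KI, and ended 25.2 kb past the gene in both. The 4 late spermatid markers were at 0% apart from Prm2, at 100% in KI and 0% in B6. The peritubular markers ranged from 0% to 15.9% and the markers of other tissues from 0% to 24.0%. Of the 8 genes, 7 had the same covered share in both strains, a count for which no share over all genes was computed. The Sertoli markers were the list whose median differed most between strains. The part of Sertoli cells in the values of the 8 genes was not tested.

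**Figure D5:**
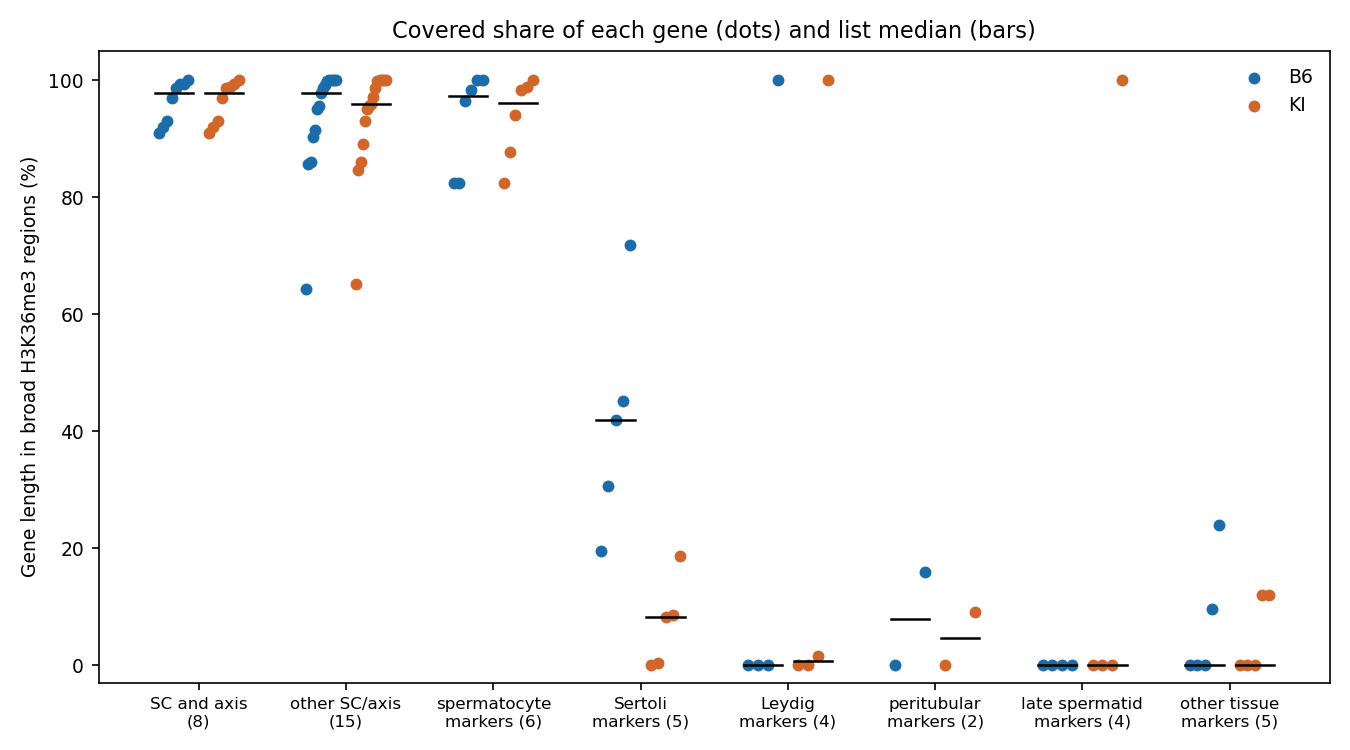
Share of each gene's length inside broad H3K36me3 regions (%, dots) and the median of each list (black bars) in B6 and KI. The 8 genes lie between 90.9% and 100% in both strains, and the Sertoli cell markers at a median of 42.0% in B6 and 8.24% in KI.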

How the data were processed

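H3K36me3 ChIP-seq was made by the authors from MNase-digested chromatin of spermatocytes of B6 and KI mice. Reads of unique position were aligned to mm9 (BWA 1.2.3 per the labels), 2 replicates per strain were merged, and ZINBA called broad regions in windows of 1000 bp moved by 500 bp, with refined peaks inside them, against 1 input per strain. By the paper's methods the merged KI data were deeper. The deposited lists hold chromosome, start and end positions (unit: bp), with no counts or scores. No input file was used.

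Positions were read as 1-based with both ends included. Broad regions were merged, and covered shares, edges and peaks met by at least 1 bp were computed for GENCODE vM1 gene spans without the mitochondrial genes, in Python 3.11.15 with numpy 2.4.6 and pandas 2.3.3, and checked against bedtools 2.31.1. The code was tested on simulated data. Repeats are 32-mers found more than once in mm9 on either strand.

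All 8 genes were described with every value. From the list of 15, genes under 50% in either strain (none), Rec8, Stag3, Smc1b, Syce3 and Trip13 were to be named, while 4930447C04Rik and Tex11 were singled out after their values were seen. Neighbours were named where they meet a gene's region, and peaks where they overlap between strains, meet an exon or are the widest. The genes and lists were chosen with earlier results of these data known. With 1 list per strain no test was made. Alternatives were the longest protein-coding transcript, closed gaps, other edges and limits, flanks of 2000 bp, peak midpoints and other sharing rules. Meiob and Rhox5 were not matched by symbol and were not analysed here.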

Additional observations from a re-analysis of the deposited data

How the results depend on the processing

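Of 46 values recomputed under alternatives, 40 moved by no more than the tolerance (500 bp for an edge, 2.27 percentage points for a covered share, 1.5 times for a count). Coverage, starts and the number of refined peaks were among these under every alternative run, with a median start between 280 and 390 bp. The median end of the region relative to the 3' end was the value that depended on the choice. It was 15720 bp in B6 and 4566 bp in KI. With the last region met it was 15770 bp in KI, and with gaps of up to 1000 bp closed 16220 bp. Closing the gaps moved the KI ends of Hormad2 (from -10.2 to 21.8 kb), Tex12 (4.75 to 22.8 kb), Sycp3 (23.5 to 30.0 kb) and Sycp1 (-73.6 to -53.1 kb), and in B6 that of Sycp1 alone. An alternative chosen after seeing the data kept the 3 genes with no other protein-coding gene in their region (Sycp1, Sycp2 and Hormad2). The median end was then 4497 bp in B6 and -10180 bp in KI, before the 3' end. Counting broad regions of the other strain as well, all refined peaks were shared, 13 in B6 and 12 in KI, in place of 4. That rule could hardly fail here, because broad regions of either strain held nearly all bases of these genes.

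No paired analysis was possible because the replicates were merged before the lists were made, and for the same reason none was left out. The lists carry no height, and the merged KI data were deeper by the paper's methods. The part of depth in the counts that differ between strains was not tested. A broad region says that enrichment was called, not how strong it was.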

Other observations

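Among the 15 other genes linked to the axis and the complex, 4930447C04Rik (Six6os1) was the least covered, at 64.3% in B6 and 65.1% in KI. Its region started 23320 bp inside the annotated gene in both strains. Read on its longest protein-coding transcript, 36.8 kb long, the same gene was covered at 98.9% in both strains and the region started 393 bp inside. The annotated gene spans 59.7 kb.

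Refined peaks were more numerous in KI than in B6 in 6 of these 15 genes, fewer in 2 and equal in 7. The whole KI list was also the longer, with 72692 refined peaks against 58502 in B6. The share of all genes with more peaks in KI was not computed. Tex11, which encodes a protein of meiotic nodules on synapsed axes, had 9 in B6 and 18 in KI over 221 kb, with 2 overlapping pairs. It was covered at 97.7% in B6 and at 95.9% in KI. The region that covers most of it started 506 bp inside the gene in B6 and 77506 bp inside in KI. Rec8 had no refined peak in either strain, and Stag3 had 2 in B6 and 0 in KI.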
